A study of Mus musculus with 51 samples.

Results

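The genes described here encode the cytosolic ribosomal proteins of the mouse. They were chosen by symbol alone, as every row named Rpl or Rps followed by a digit, or Rpsa, Rplp0, Rplp1 or Rplp2, without the S6 kinases (Rps6k) and without symbols that mark pseudogenes (-ps). The rule used no measured value. It found 83 genes in at least 1 of 6 tissue tables, among 14606 genes in all. The tables held 66 of them in duodenum, 69 in jejunum, 75 in ileum, 50 in liver, 80 in subcutaneous white fat (WAT) and 70 in gastrocnemius muscle, and 48 were in all 6. Of the 83, 41 belong to the large (60S) subunit, 30 to the small (40S) subunit and 3 (Rplp0, Rplp1 and Rplp2) to the stalk of the large subunit. The other 9 are paralogs or namesakes: Rpl3l, Rpl7l1, Rpl22l1, Rpl36al, Rpl39l, Rps4l, Rps27l and Rps27rt, and Rps19bp1, which encodes a protein that binds RPS19 and is not itself a ribosomal protein. A gene entered a table only with at least 1 CPM (counts of a gene scaled to a common library total) in as many libraries as the smaller group has, so the counts below cover the genes that passed that filter. In 9 members in duodenum, 5 in jejunum, 1 in ileum, 17 in liver, 3 in WAT and 8 in muscle, fewer sham libraries than the filter asks for reached 1 CPM. These genes needed their RYGB values to enter, and their differences are not independent of the filter.

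The study sequenced RNA of male C57Bl6 mice with obesity from a high-fat diet, killed at 10am after an overnight fast. Surgery, 9 weeks earlier, was sham or a Roux-en-Y gastric bypass, abbreviated RYGB below. RYGB connects a small stomach pouch to the jejunum, so that food bypasses the duodenum. All mice received an elemental liquid diet after surgery and were then moved stepwise back to high-fat food, with rations of the sham mice restricted so that weights matched. Sham and RYGB groups held 5 and 4 libraries in duodenum, 5 and 4 in jejunum, 5 and 2 in ileum, 4 and 5 in liver, 5 and 4 in WAT, and 4 and 4 in muscle, from 10 mice, most of which gave several tissues. Surgery and food restriction cannot be told apart. The 3 gut tissues were villi scraped off after chilled EDTA, which limits them as a model of the whole wall.

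A ribosome joins a small subunit, which reads the messenger RNA, to a large subunit, which forms the peptide bond. Each ribosomal protein is encoded by 1 main gene, and the messenger RNAs typically begin with a C and a run of pyrimidines (the 5′ terminal oligopyrimidine tract), through which mTORC1 controls their translation. Ribosomal protein synthesis is high in dividing cells such as those of the intestinal crypts.

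The promoters of several members are shown because the tract at the start is the best known sequence shared by the family and was not used to choose it. RefSeq promoter windows (GRCm38.p6, 250 bases before to 50 after the start) were found for 63 of the 83 genes. Each line gives 40 bases before the annotated start and the first 20 bases transcribed, and capitals mark a C followed by pyrimidines at the start. The first 4 genes passed the test in WAT (below) and the last 2, Rps6 and Rpl38, did not.
Rplp2 (chr7:141447611-141447670, plus strand): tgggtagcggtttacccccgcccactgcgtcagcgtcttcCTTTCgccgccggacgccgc
Rpl18 (chr7:45718031-45718090, plus strand): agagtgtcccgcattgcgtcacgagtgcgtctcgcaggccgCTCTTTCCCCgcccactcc
Rps10 (chr17:27635225-27635284, minus strand): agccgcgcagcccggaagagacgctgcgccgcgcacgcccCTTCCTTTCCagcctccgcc
Rps24 (chr14:24490638-24490697, plus strand): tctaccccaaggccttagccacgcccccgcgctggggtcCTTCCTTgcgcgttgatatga
Rps6 (chr4:86857348-86857407, minus strand): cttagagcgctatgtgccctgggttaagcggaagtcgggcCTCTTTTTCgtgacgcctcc
Rpl38 (chr11:114668540-114668599, plus strand): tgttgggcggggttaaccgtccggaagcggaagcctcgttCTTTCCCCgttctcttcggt

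A C followed by at least 4 pyrimidines within 5 bases of the annotated start was found in 29 of the 63 genes (46.0%), against 21.2% of all 27025 genes with a window. The word CCGGAAG, the core of an ETS factor site, was present on either strand in 41.3% of the members and in 9.93% of all genes, and Rps10 and Rpl38 carry it in the lines above. GGGCGG, the core of an Sp1 site, was present in 61.9% against 38.2%, and AAGATGGC, the core of a YY1 site, in 9.52% against 3.19%. CTTTCC, which can lie inside the pyrimidine tract, was present in 54.0% against 29.3%. Of the members that passed the test in WAT, 13 of 25 with a window (52.0%) had the tract, and of the WAT members that did not pass, 14 of 35. These matches are letters in a window and not measured sites.

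Library features were as follows. The 51 libraries hold 0 identical pairs. The low values of 5 liver libraries (sham 1 and 2, RYGB 2, 3 and 4) fall on steps that put their depth at 4230000 to 5010000 counted reads, and the depth of the other 46 libraries is unknown. The markers of the labelled tissue were all measured and abundant in each table (enterocyte, liver, white fat and muscle lists). Pancreatic acinar transcripts made up 6.50% to 9.39% of duodenum sham 1, 2 and 3 and 1.67% of RYGB 2. Ileum sham 4 stood apart, with a summed CPM of Paneth cell markers of 41620 against 42.0 to 689 in the other 6 ileum libraries.

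Reads counted to ribosomal protein genes were a small part of every library. Their summed share of CPM ranged from 0.0648% to 0.958%, and the highest value, in ileum sham 4, was followed by 0.6247% in WAT RYGB 2. In the sham groups the mean share was 0.0789% ± 0.0164 (SD, n = 5) in duodenum, 0.0863% ± 0.0114 (n = 5) in jejunum, 0.0889% ± 0.0164 (n = 4) in liver, 0.201% ± 0.00798 (n = 4) in muscle and 0.263% ± 0.0378 (n = 5) in WAT, and the ileum sham median was 0.0956%. The gut and liver values overlapped, and muscle and WAT lay above them without overlap when ileum sham 4 is set aside. The 8 most abundant members carried 43.9% of the members' CPM in WAT and 50.3% to 56.1% in the other tissues. Rpl4, a 60S protein, had the highest CPM in duodenum, jejunum, ileum, WAT and muscle.

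Per kilobase of coding transcript, the level in sham WAT was 246 CPM per kb for Rplp1 and lowest, at 0.986 CPM per kb, for Rps13. Of the 50-base words in the members' coding transcripts, a median of 35.45% also occurred in a transcript of another annotated gene, against 1.30% for 103 other genes of the translation lists. Rpl3l shares 0 such words, Rps3 shares 2.82% and Rpl8 6.30%, while Rpl36 shares 81.1% and Rps6 84.6%. Levels of single members, the order of levels between members and the summed shares above are therefore uncertain. The treatment of reads with several placements is among the steps not given in the sources used. In addition, exons of 37 of the 83 members overlap those of another annotated gene, such as a small nucleolar RNA in Rps2 or Ccdc84 and Trappc4 on the opposite strand of Rps25, and their reads may not be told apart.

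**Figure D1:**
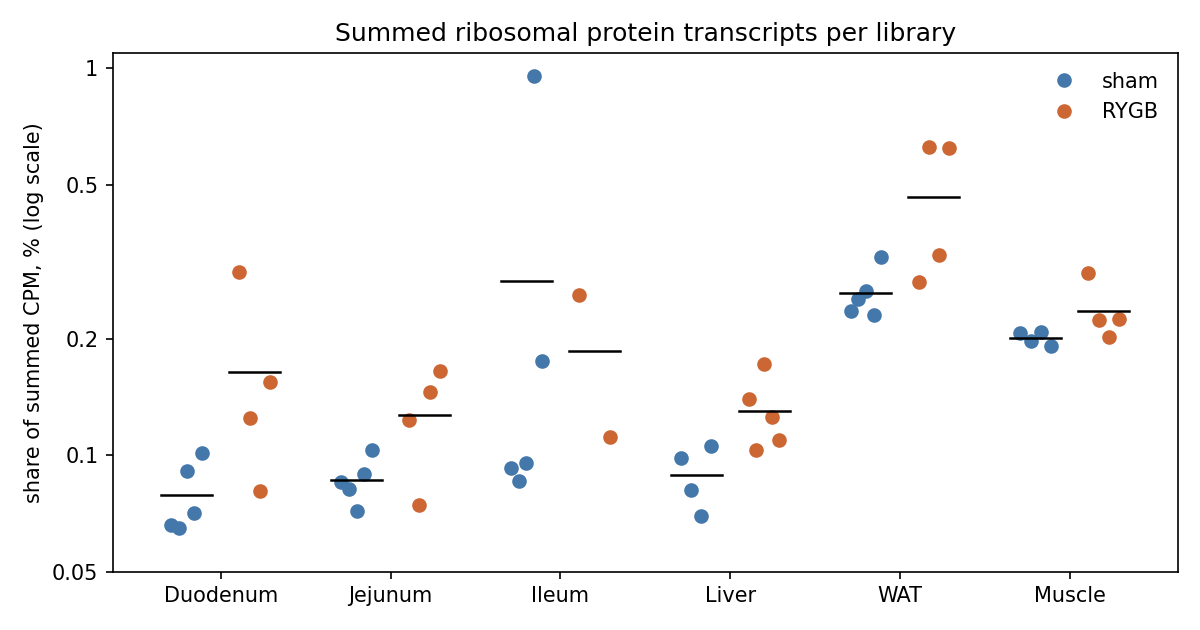
Share of the summed CPM of each library that came from ribosomal protein genes, in percent on a log axis, by tissue and surgery. Points are libraries and black lines group means, and ileum sham 4 is the single point near 1%.

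In WAT, 35 of 80 members rose after RYGB and 0 fell (limma with Benjamini-Hochberg adjustment over 12690 genes, adjusted p below 0.05), where 14.3% of all genes rose and 26.3% fell. In bulk tissue, fewer cells of a type and less RNA per cell cannot be told apart, here and in every tissue below. With median-of-ratios scaling 48 members rose and 0 fell, where 21.1% of all genes rose, since that scaling moved the median of all genes from -0.16 to 0.00. The median log2 difference of the members was 0.61, against -0.16 for all genes, and 78 of 80 members lay above 0, as did 40.5% of all genes. All 3 stalk genes passed, with 14 of 29 genes of the 40S subunit, 14 of 40 of the 60S subunit and 4 of 8 paralogs or namesakes. The summed share went from 0.263% ± 0.0378 (SD, n = 5) to 0.464% ± 0.184 (n = 4) without a test, and its 4 RYGB values were 0.281%, 0.6247%, 0.330% and 0.622%. RYGB 2 and 4 were the high ones, and RYGB 1 lay below sham 5 (0.326%).

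Rplp0, the protein at the base of the stalk, was measured at 75.6, 86.3, 77.3, 75.6 and 100.5 CPM in sham and at 114.2, 221.6, 125.1 and 211.9 CPM in RYGB. The groups did not overlap, and the log2 difference was 0.96 ± 0.21 (SE; limma adjusted p = 0.00555). Its partners Rplp2 (log2 difference 1.07 ± 0.34, adjusted p = 0.0268) and Rplp1 (0.85 ± 0.31, adjusted p = 0.0495) rose as well, with overlap in both. The stalk recruits the elongation factors to the ribosome.

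Among 40S genes, Rps19, whose human counterpart is mutated in Diamond-Blackfan anaemia, showed the largest log2 difference of all members, 1.35 ± 0.26 (SE; limma adjusted p = 0.00279). Its CPM was 19.3, 22.5, 21.6, 14.7 and 31.9 in sham and 47.3, 82.2, 36.7 and 69.4 in RYGB. Every RYGB library lay above every sham library. Rps2, near the messenger RNA entry channel, was at 49.2, 54.1, 28.3, 29.7 and 67.7 CPM in sham and at 97.1, 111.1, 58.2 and 126.7 CPM in RYGB. Its RYGB 3 value lay inside the sham range, and its log2 difference was 1.11 ± 0.30 (limma adjusted p = 0.0131). Rps24 (1.00 ± 0.28), Rps9 (0.94 ± 0.27) and Rps3 (0.87 ± 0.26) also rose. Rps6, the substrate of the S6 kinases, had a log2 difference of 0.29 ± 0.20 and an adjusted p of 0.255 (limma) at a mean of 2.46 CPM in sham.

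Among 60S genes, Rpl41, which encodes the shortest ribosomal protein, rose most, with 23.9, 22.7, 27.9, 17.4 and 33.4 CPM in sham and 42.5, 110.4, 42.9 and 71.1 CPM in RYGB. Its groups did not overlap, and its log2 difference was 1.29 ± 0.29 (SE; limma adjusted p = 0.00530). Rpl31 (0.97 ± 0.25), Rpl18 (0.99 ± 0.27) and Rpl32 (1.01 ± 0.28) rose without overlap, and Rpl7 (0.87 ± 0.24) rose with overlap. Rpl11, which with Rpl5 binds MDM2 when ribosome assembly is disturbed, rose by a log2 difference of 0.65 ± 0.21 (adjusted p = 0.0297). Rpl5 did not pass, with 13.4 to 17.3 CPM in sham, 10.6 to 17.6 CPM in RYGB and a log2 difference of -0.15 ± 0.17 (limma adjusted p = 0.50). Rpl10, a protein added late in 60S assembly, had the lowest log2 difference, -0.36 ± 0.19 (adjusted p = 0.156).

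The smallest p in WAT belonged to Rps27l, a paralog of Rps27 known as a p53 target. Its CPM was 6.8, 7.8, 8.6, 7.8 and 6.8 in sham and 11.8, 20.7, 13.9 and 20.5 in RYGB, and its log2 difference was 1.02 ± 0.19 (SE; limma adjusted p = 0.00254). The other paralogs and namesakes that passed were Rpl7l1 (0.61 ± 0.18), a relative of Rpl7 with a part in ribosome assembly, Rpl36al (0.78 ± 0.28) and Rps19bp1 (0.76 ± 0.22). Rps27rt, a copy of Rps27, had a log2 difference of 1.16 ± 0.46 (adjusted p = 0.0626), with 23.4 CPM in RYGB 2 and 2.8 CPM in RYGB 1. Groups did not overlap in 12 of 80 members, all higher, and 11.7% of all genes had such higher values. Rps29, 1 of the 35 genes that passed, needed its RYGB values to enter the table.

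**Figure D2:**
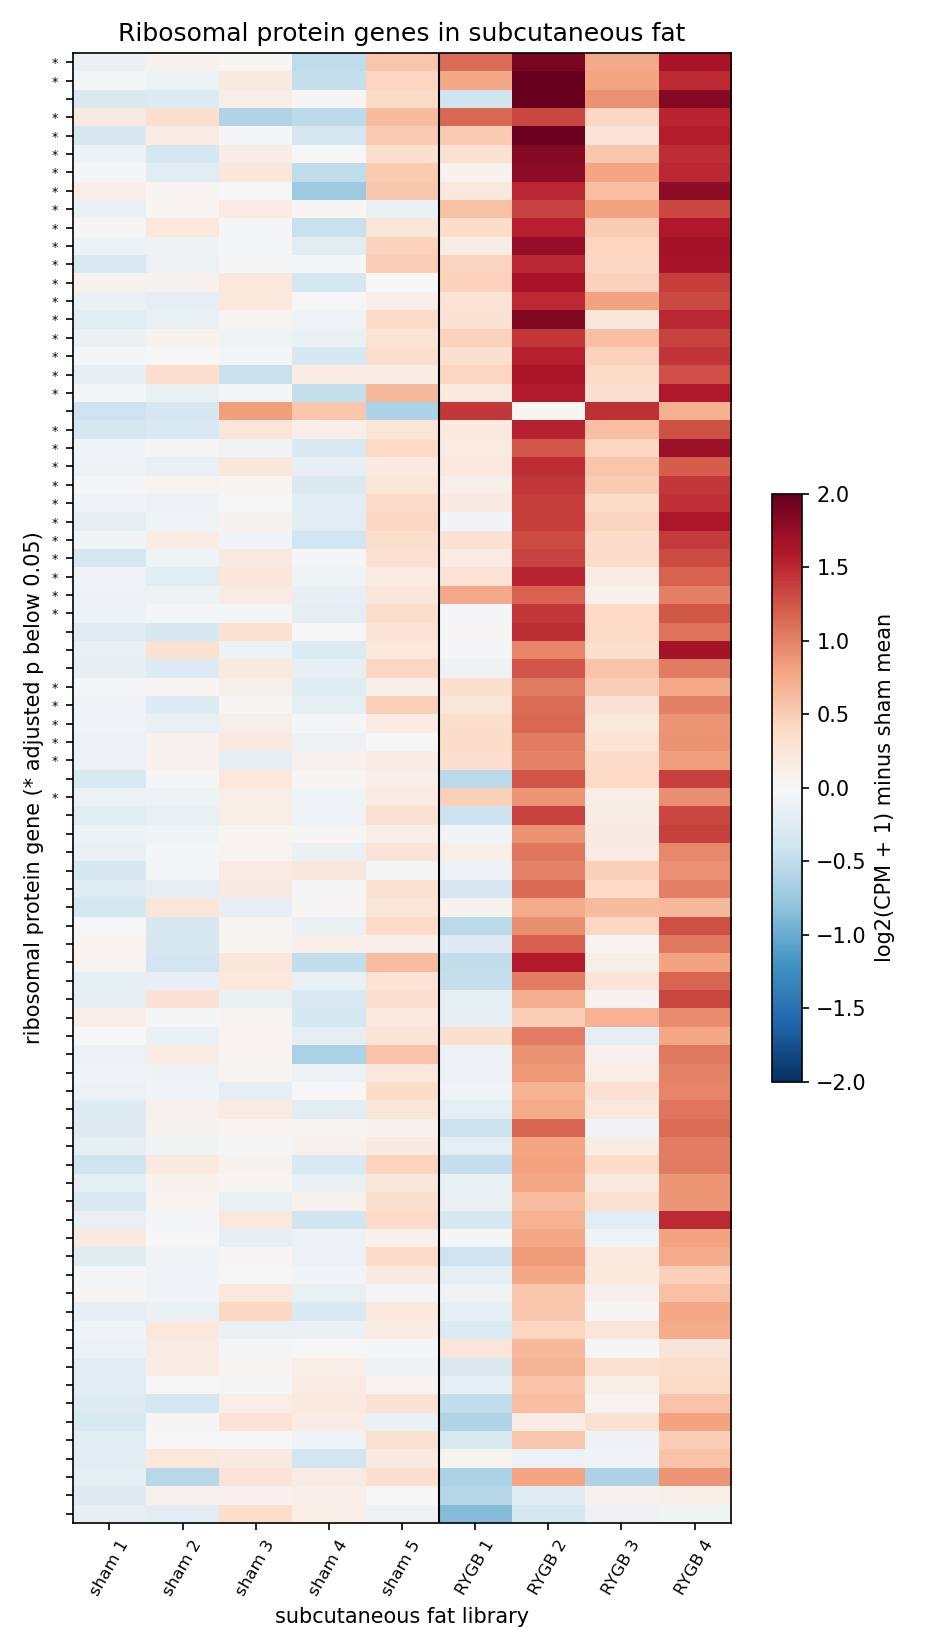
The 80 ribosomal protein genes (rows, ordered by log2 difference, names not shown) in each subcutaneous fat library (columns), as log2(CPM + 1) minus the mean of the 5 sham libraries. An asterisk marks the 35 genes with an adjusted p below 0.05, and the columns RYGB 2 and RYGB 4 are the reddest.

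The WAT count moved with single libraries. It was 13 of 80 without RYGB 2, where 13.4% of all genes rose, and 14 without RYGB 4, where 12.1% rose. Without sham 4 it was 14, where 1391 of 12690 genes rose. It was 16 without sham 1, 18 without sham 2 and 20 without sham 3, where 11.3%, 12.1% and 11.3% of all genes rose. Without RYGB 1 it was 58, where 14.4% of all genes rose. With RYGB 2 and 4 both left out, added after the data were seen, 5 of 80 members rose and 0 fell. That count was below the share of all genes that rose, 10.4%. The 5 were Rplp0, Rpl41, Rps19, Rps27l and Rpl39l, and Rpl39l needed its RYGB values to enter the table. A group of 12 of the 35 passed in all 9 fits that leave out 1 library: Rps27l, Rps19, Rpl41, Rplp0, Rpl31, Rps2, Rpl18, Rpl32, Rpl7, Rps24, Rps9 and Rpl7l1. Summed liver markers were higher in every RYGB library (2815 to 16500 CPM) than in every sham library (481 to 1589 CPM), and highest in RYGB 2. Of the 4 liver markers measured in WAT, however, 1 rose and 1 fell. RYGB 2 also held the highest white fat markers (32510 CPM against 15910 to 19870). Proliferation markers did not follow the share: they were highest in RYGB 4 (298 CPM) and RYGB 3 (248 CPM) and lowest in RYGB 2 (70.3 CPM). In sham they ranged from 86.9 to 106.4 CPM. RYGB 4 and sham 3 were both high in lymphocyte markers (1306 and 1144 CPM). The part of these markers in the result was not tested.

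Transcript length moved with the WAT result. The median coding transcript of the members was 774 bases, against 2748 for all genes of the table. Among other genes with a coding transcript of up to 1000 bases, 41.2% of 856 rose, and among members of that length 49.2% of 61. Above 1000 bases the shares were 12.1% of 11667 other genes and 27.8% of 18 members. These other short genes made up 4.92% to 5.66% of each sham library, 6.15% of RYGB 3, 7.63% of RYGB 1, 9.44% of RYGB 4 and 13.1% of RYGB 2. After removal of each library's trend with coding transcript length, a setting added after the data were seen, 11 of 79 members were higher. That count was below the share of all genes that were higher, 18.0%. Another 6 members were lower, among them Rpl10, Rpl38 and Rps25, where 2372 of 12602 genes were lower. The members' median was 0.17. Of the 35, 9 still rose: Rps19, Rplp0, Rpl41, Rps2, Rps9, Rpsa, Rpl7, Rpl7l1 and Rpl14. With exon length in its place 22 of 80 members rose, where 18.8% of all genes did, and 1 fell, as did 2423 of 12663 genes. Rplp1 then no longer lay above 0 (-0.048). The part of length in the WAT result was not tested further.

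In duodenum, the limb that food no longer reaches, all 66 members lay above 0, but 0 of 66 passed the test in either direction, where 0.128% of all genes rose and 0.220% fell. The median log2 difference was 0.79 for the members and 0.15 for all genes, of which 63.6% lay above 0. At an unadjusted limma p below 0.05, 37 members were higher and 0 lower, where 17.6% of all genes were higher and 5.11% lower. Of the 66, 9 needed their RYGB values to enter the table, and Rps4l, Rpl13 and Rps28 of the 37 are among them. These counts are therefore not independent of the filter. The summed share was 0.297%, 0.125%, 0.0807% and 0.155% in RYGB and 0.0648% to 0.102% in sham, so that RYGB 3 lay inside the sham range.

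Rps2 came nearest to the threshold, with 21.2, 14.1, 22.4, 12.1 and 14.2 CPM in sham and 106.4, 73.6, 25.2 and 48.9 CPM in RYGB. The groups did not overlap, at a log2 difference of 1.72 ± 0.36 (SE; limma adjusted p = 0.0540). Rpl27a, a 60S protein, was at 1.7 to 2.7 CPM in sham and at 15.2, 6.6, 3.6 and 14.1 CPM in RYGB (log2 difference 1.64 ± 0.35, adjusted p = 0.0544). Rplp1 was at 26.7 to 31.9 CPM in sham and at 143.6, 69.9, 34.6 and 100.5 CPM in RYGB (1.35 ± 0.33, adjusted p = 0.0650). In each of these genes RYGB 1 was the highest library and RYGB 3 the lowest of its group. Groups did not overlap in 6 of 66 members, all higher in RYGB, and 5.88% of all genes had such higher values.

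Without RYGB 3, 24 members rose and 7.50% of all genes did, and without sham 5, 4 members rose and 2.77% of all genes did. Rpl13, among the 24, needed its RYGB values to enter the table. With RYGB 1 left out 0 passed, where 0.00% of all genes rose, and the members' median was 0.45. RYGB 1 and RYGB 4 also had the highest summed proliferation markers, 634 and 275 CPM, against 52.4 to 97.8 CPM in sham, 128 in RYGB 2 and 52.2 in RYGB 3. Crypt and stem cell markers summed to 346 and 376 CPM in those 2 libraries and to 55.3 to 105 CPM in the other 7. Paneth markers were higher in every duodenal RYGB library (92.3 to 409 CPM) than in every sham library (23.2 to 68.7 CPM), and highest in RYGB 4 and RYGB 1. These are the markers of crypt cells in a sample prepared from villi, and their part in the duodenal values was not tested. Without the 4 libraries rich in pancreatic transcripts 0 members passed, as did 0.00% of all genes, and the members' median was 0.75.

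**Figure D3:**
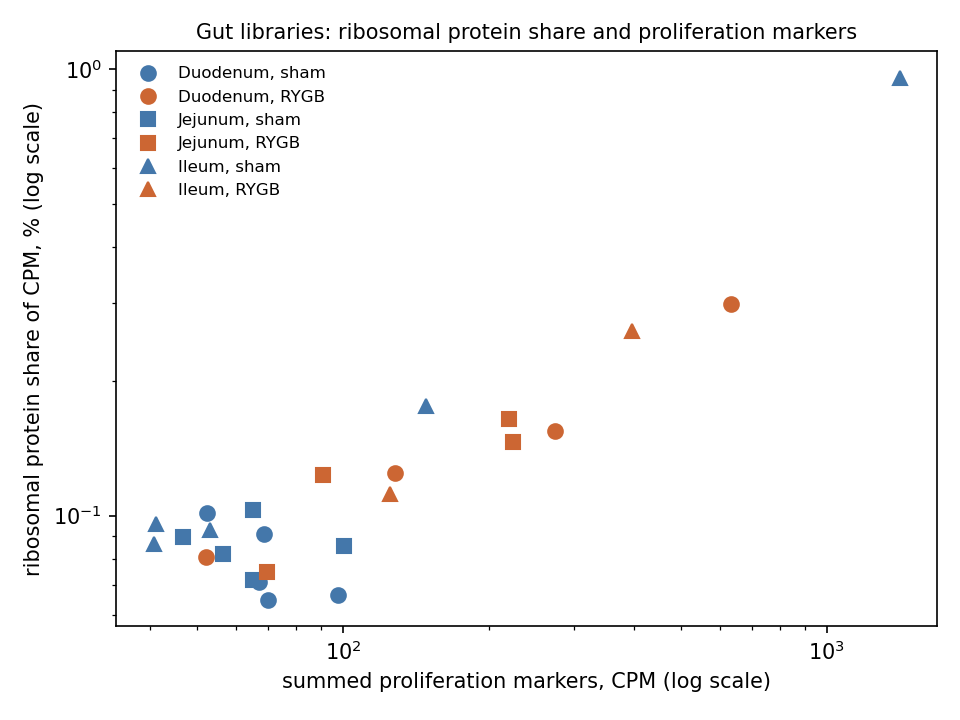
Ribosomal protein share of CPM (percent, log axis) against the summed CPM of the proliferation markers (log axis) in the 25 gut libraries. Circles are duodenum, squares jejunum and triangles ileum, blue is sham and orange RYGB, and the libraries with most proliferation markers (ileum sham 4, duodenum RYGB 1) have the highest shares.

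In jejunum, which receives the food directly after RYGB, 2 of 69 members rose, Rps4l and Rps19bp1, and 0 fell. Over all genes 6.32% rose and 6.29% fell, so the members' count was below that share. The median log2 difference of the members was 0.39, against 0.08 for all genes, and 56 of 69 lay above 0, as did 56.8% of all genes. Groups did not overlap in 3 members (Rps4l, Rps19bp1 and Rpl41), all higher, and 7.53% of all genes had such higher values.

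Rps4l had the largest log2 difference, 2.23 ± 0.25 (SE; limma adjusted p = 0.00270). It was at 1.9, 2.3, 0.8, 1.0 and 2.1 CPM in sham and at 10.4, 8.8, 11.9 and 13.3 CPM in RYGB. The groups lay well apart, and the gene passed in all 9 fits that leave out 1 library. Rps19bp1 was at 0.6 to 1.9 CPM in sham and at 3.0, 2.0, 5.2 and 3.9 CPM after RYGB (1.00 ± 0.26, adjusted p = 0.0336), and passed in 3 of the 9 fits.

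Rps4l lies on chr6:148354656-148355598 and is annotated by GENCODE as a transcribed processed pseudogene, a copy of an RPS4 messenger RNA placed back into the genome. No other annotated gene overlaps its exons. Its transcript is 80.1% identical to the coding part of Rps4x over 797 aligned positions, with 146 mismatches, and 14.9% of its 50-base words occur in another gene. The first 90 coding bases of Rps4x and the matching bases of Rps4l (GENCODE M21 transcripts, GRCm38) are shown because they let the reads of both genes be told apart, and capitals mark the bases that differ.
Rps4x: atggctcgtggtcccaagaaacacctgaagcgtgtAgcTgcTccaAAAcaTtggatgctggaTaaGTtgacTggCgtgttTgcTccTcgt
Rps4l: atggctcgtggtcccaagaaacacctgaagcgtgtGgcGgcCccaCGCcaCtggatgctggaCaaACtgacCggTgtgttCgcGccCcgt

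Rps4l was also high in the other gut segments after RYGB. In duodenum it was at 2.3, 5.6, 0.7, 0.6 and 11.4 CPM in sham and at 17.6, 14, 14 and 6.6 CPM in RYGB. Sham 5 lay inside the RYGB range, and the log2 difference was 1.84 ± 0.57 (SE; limma adjusted p = 0.101). Duodenal Rps4l reached 1 CPM in 3 sham libraries and needed its RYGB values to enter the table. In ileum it was at 1.3, 4.3, 1.1, 2.2 and 2.7 CPM in sham and at 9.9 and 7.0 CPM in RYGB (1.57 ± 0.58, adjusted p = 1.00), the single ileal member without overlap, where 3.15% of all genes had such higher values. In WAT it was at 11.1 to 13.7 CPM in sham and 11.9 to 19.7 CPM in RYGB (0.28 ± 0.16, adjusted p = 0.182), and it was in neither the liver nor the muscle table. The duodenal, jejunal and ileal samples came in part from the same mice, so these are not independent observations.

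**Figure D4:**
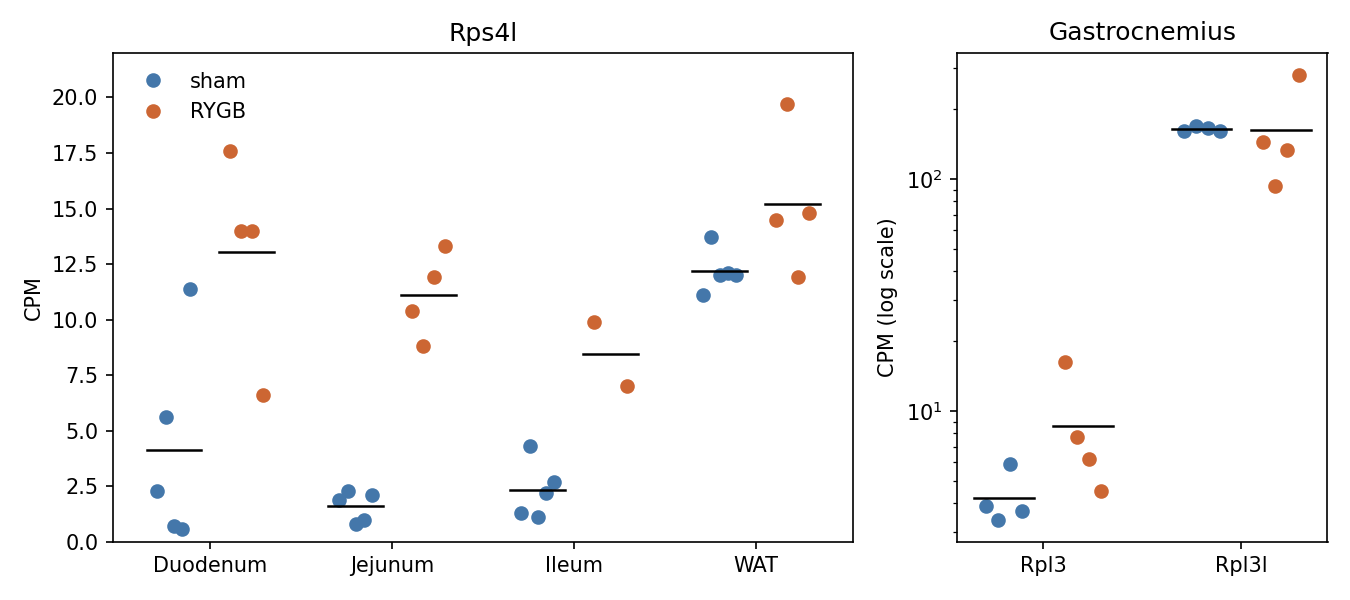
Left, CPM of Rps4l in each library of the 4 tissues that list it. Right, CPM of Rpl3 and its paralog Rpl3l in gastrocnemius on a log axis. Points are libraries, black lines group means, blue is sham and orange RYGB. Jejunal Rps4l lies at or below 2.3 CPM in sham and at or above 8.8 CPM in RYGB.

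Other jejunal members came close to the threshold. Rpl14, a 60S protein, was at 0.5 to 1.4 CPM in sham and at 2.6, 1.2, 2.3 and 2.8 CPM in RYGB (log2 difference 0.80 ± 0.24, limma adjusted p = 0.0518). It reached 1 CPM in 1 sham and 4 RYGB libraries, so it needed its RYGB values to enter the table. Rpl41 was at 6.1, 7.1, 0.9, 5.4 and 10.2 CPM in sham and at 25.4, 11.2, 29.1 and 12.1 CPM in RYGB (1.65 ± 0.49, adjusted p = 0.0532), and Rps24 was at 7.1 to 20.1 CPM in sham and at 31.2, 13.0, 43.2 and 39.1 CPM in RYGB (adjusted p = 0.0549). RYGB 2 was the lowest RYGB library in all 3 genes. Without it 16 members rose and 1 fell, where 9.79% of all genes rose. Proliferation markers summed to 225 and 220 CPM in RYGB 3 and 4 and to 46.7 to 100.5 CPM in the other 7 jejunal libraries, and the summed share was highest in RYGB 4 (0.165%) and RYGB 3 (0.146%). Paneth markers were higher in every RYGB library (222 to 400.4 CPM) than in every sham library (30.2 to 117 CPM), and 4 of the 5 measured rose. The part of either in the result was not tested.

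In ileum, with 5 sham and 2 RYGB libraries, 0 of 75 members passed, as did 0.00% of all genes. At an unadjusted limma p below 0.05 only Rps4l was higher and 0 were lower, where 1.69% of all genes were higher and 1.95% lower. The members' median was -0.07, and it was 0.54 without sham 4, again with 0 members passing, where 0.233% of all genes rose. Rplp0 was at 43.6, 44.8, 54.3, 519.6 and 70.7 CPM in sham and at 113.5 and 63.6 CPM in RYGB. Sham 4 was far above the others, and it was also highest in proliferation markers (1417 CPM against 40.6 to 395), in crypt and stem cell markers (4176 CPM against 43.4 to 195) and in Paneth markers, and lowest in enterocyte markers (11900 CPM against 30350 to 41050). The part of these cells in the ileal values was not tested.

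In liver, 2 of 50 members rose, Rps25 and Rps24, both of the 40S subunit, and 0 fell, where 2.03% of all genes rose and 2.60% fell. The median log2 difference was 0.31 for the members and 0.26 for all genes. Rps24 was at 15.8, 11.1, 6.4 and 12.3 CPM in sham and at 26.6, 32.4, 50.2, 27.8 and 24.9 CPM in RYGB. Its groups did not overlap, and the log2 difference was 1.44 ± 0.35 (SE; limma adjusted p = 0.0441). Rps25, which some viral and cellular messenger RNAs need for internal initiation, was at 0.4, 0.2, 0.2 and 0.0 CPM in sham and at 1.4, 3.3, 13.3, 11.7 and 3.4 CPM in RYGB (2.35 ± 0.52, adjusted p = 0.0392). In sham 0 libraries reached 1 CPM of Rps25, so it was in the table through its RYGB values alone, and its call is no support for a rise among the members. Each passed in 3 of the 9 fits that leave out 1 library, and 0 members passed without sham 2, 3 or 4 or RYGB 2, 3 or 4. In those fits 0.0292% to 0.0681% of all genes rose. Groups did not overlap in 5 of 50 members, all higher, where 4.34% of all genes had such higher values. Rps25 and Rpsa, both among the 5, needed their RYGB values to enter the table. Their part of this count is not independent of the filter. For Rps25, 63.4% of the 50-base words occur in other genes.

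Wider liver differences did not pass. Rps2 was at 11.8, 6.4, 0.0 and 0.4 CPM in sham and at 2.2, 55.6, 54.7, 101.3 and 15.6 CPM in RYGB (log2 difference 3.04 ± 1.00, SE; limma adjusted p = 0.0737). Rps14 ranged from 0.2 to 1.9 CPM in sham and from 1.6 to 33.0 CPM in RYGB (2.26 ± 0.69, adjusted p = 0.0639). In both genes RYGB 2, 3, 4 and 5 were above every sham library. RYGB 2, 3 and 4, the RYGB libraries of low depth, were the highest. Both genes needed their RYGB values to enter the table.

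Within the 5 libraries of low depth (2 sham, 3 RYGB), the difference in mean log2(CPM + 1) was 2.83 for Rps25 and 1.36 for Rps24, and within the other 4 (2 and 2) it was 1.57 and 1.43. For the median of all members it was 0.31 and 0.48, against -0.01 and 0.41 for all genes. With the depth class as a term, added after the data were seen, 13 of 50 members rose and 14.3% of all genes did. Among them were Rpl4, Rpl7, Rplp0, Rps2, Rps4x, Rps14, Rps24 and Rps25. Of these, Rpl7, Rps2, Rps4x, Rps14 and Rps25 needed their RYGB values to enter the table. Macrophage markers summed to 220 to 755 CPM in RYGB 1 to 4, to 42.1 CPM in RYGB 5 and to 6.70 to 69.5 CPM in sham, and their part in these values was not tested.

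In muscle, 0 of 70 members passed, as did 0.00% of all genes. At an unadjusted limma p below 0.05, 9 members were higher and 0 lower, where 4.02% of all genes were higher and 2.98% lower. Groups did not overlap in 3 members, all higher and Rpl37a and Rps15 among them, where 1.91% of all genes had such higher values. The median log2 difference was 0.09 for the members and 0.00 for all genes. The smallest p belonged to Rpl37a, a 60S protein, at 3.7 to 4.7 CPM in sham and at 9.3, 11.3, 11.4 and 5.5 CPM in RYGB without overlap (log2 difference 0.93 ± 0.23, limma adjusted p = 0.413). Rps2 was at 53.6 to 76.8 CPM in sham and at 92.1, 84.7, 134.8 and 75.9 CPM in RYGB (0.62 ± 0.21, adjusted p = 0.594).

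Muscle alone listed Rpl3l, the striated muscle paralog of Rpl3, which lies near the peptidyl transferase centre. It was at 161.6, 168.5, 166.5 and 160.4 CPM in sham and at 144.0, 93.0, 133.3 and 279.7 CPM in RYGB. The RYGB values lay on both sides of the narrow sham range, at a log2 difference of -0.13 ± 0.29 (SE; limma adjusted p = 0.962). Rpl3 was at 3.9, 3.4, 5.9 and 3.7 CPM in sham and at 16.2, 7.7, 6.2 and 4.5 CPM in RYGB (0.77 ± 0.32, adjusted p = 0.682). Part of the reads of Rpl3 may be lost to copies, since 67.1% of its 50-base words occur in other genes and 0 of those of Rpl3l do.

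**Figure D5:**
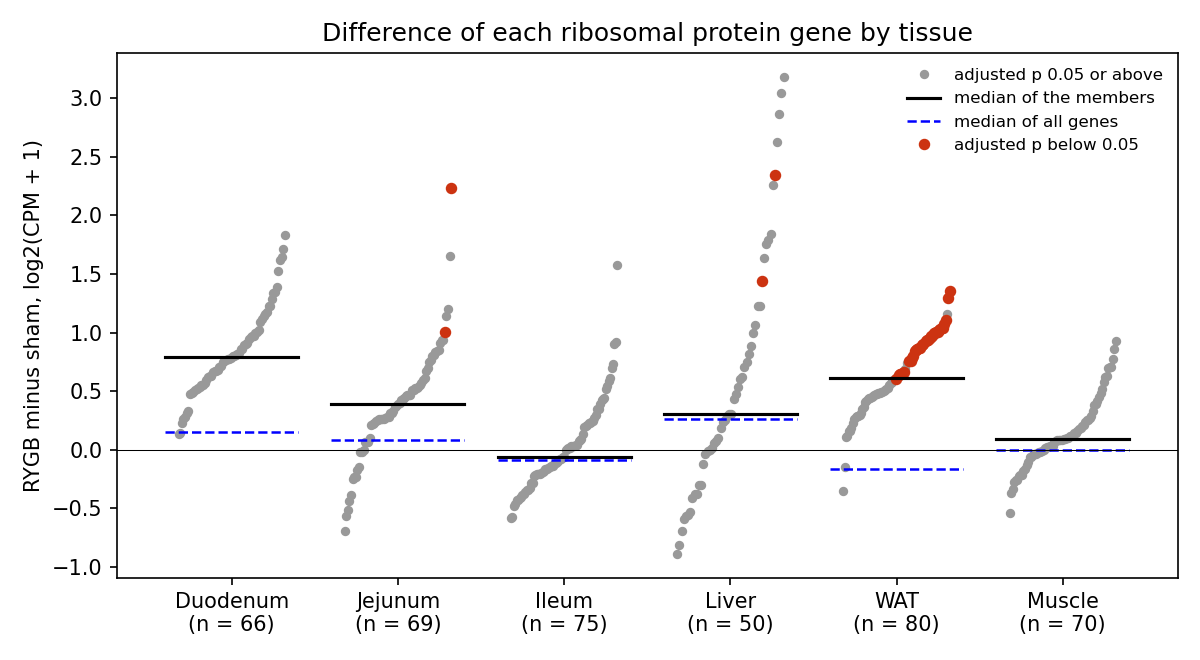
Log2 difference (RYGB minus sham, log2(CPM + 1)) of each ribosomal protein gene, sorted within each tissue. Red points have an adjusted p below 0.05, black lines are the members' medians and dashed blue lines the medians of all genes. WAT holds 35 of the 39 red points.

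Differences between tissues were tested in mice that gave both. Between jejunum and duodenum (3 RYGB and 5 sham mice), the RYGB minus sham difference was lower in jejunum for 2 of 65 members and higher for 0, where 1.88% of all genes were lower and 0.525% higher. They were Rpl22l1, a paralog of Rpl22, with a difference of differences of -1.78 ± 0.42 (SE; limma adjusted p = 0.0461), and Rps7, a 40S protein, with -2.12 ± 0.50 (adjusted p = 0.0470). Duodenal Rpl22l1 was at 4.3, 2.8, 3.0, 7.4 and 4.0 CPM in sham and at 11.6, 16.1, 6.7 and 15.4 CPM in RYGB, whereas jejunal Rpl22l1 was at 10.2, 9.6, 4.1, 9.6 and 9.5 CPM in sham and at 8.1, 5.2, 5.4 and 5.0 CPM in RYGB. Jejunal Rps7 was at 4.2 to 6.8 CPM in sham and at 4.0, 2.3, 2.1 and 6.7 CPM in RYGB, and duodenal Rps7 at 1.7 to 8.0 and at 12.2, 14, 2.7 and 24.6 CPM. Both were above sham in most duodenal RYGB libraries and within or below it in jejunum, and each kept its call in 2 of the 8 fits that leave out 1 mouse.

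Between WAT and liver (4 and 4 mice), 2 of 49 members were higher in WAT, Rpl15 (1.77 ± 0.52, adjusted p = 0.0422) and Rps27rt (1.83 ± 0.52, adjusted p = 0.0372), where 3.37% of all genes were. Another 3 were lower, Rps14 (-2.49 ± 0.68, adjusted p = 0.0326), Rps4x (-3.01 ± 0.92, adjusted p = 0.0488) and Rps25 (-2.31 ± 0.59, adjusted p = 0.0247), where 9.51% of all genes were. Rps25, Rps14 and Rps4x needed their RYGB values to enter the liver table, so these 3 calls are not independent of the filter. Of these 5, Rps25 passed in 4 and the others in 2 of the 8 fits that leave out 1 mouse. Between jejunum and liver 0 of 49 members passed by limma, where 0.0224% of 8918 genes were higher and 0.0449% lower.

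Other genes of the translation machinery, from lists chosen for this tissue set, moved less evenly in WAT. The share of all WAT genes to set beside each list is 14.3% that rose and 26.3% that fell. Of 20 translation factors and other genes with known pyrimidine tracts, 6 rose and 2 fell, with Eef1g, a subunit of the elongation factor complex, at 14.5 ± 1.43 CPM (SD, n = 5) in sham and 25.0 ± 6.50 (n = 4) in RYGB (log2 difference 0.72 ± 0.17, limma adjusted p = 0.00758). The histone chaperone Nap1l1, also on that list, fell from 471 ± 59.0 to 105 ± 35.4 CPM (limma adjusted p = 1.1e-04). Of 45 measured ribosome assembly genes 7 rose, near the share of all genes, and 7 fell, below that share. Nhp2, of the box H/ACA particles that modify ribosomal RNA, rose from 4.42 ± 1.09 to 15.7 ± 7.35 CPM, and Utp20, of the small subunit processome, fell from 42.4 ± 1.72 to 25.7 ± 7.41 CPM. Of 14 RNA polymerase I genes 1 rose and 2 fell, and of 19 genes on a mixed list of mTORC1 genes, p90 S6 kinases of the ERK pathway and Myc genes 4 rose and 2 fell. Eif4ebp1, a repressor of cap-dependent initiation and an mTORC1 target, rose from 84.5 ± 8.81 to 156 ± 58.8 CPM, and those that fell were Rheb, the activator of mTORC1, and Rps6ka3, a p90 kinase.

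In duodenum 38 of 40 ribosome assembly genes and all 20 translation factors lay above 0, with medians of 0.91 and 0.59. Over all duodenal genes 63.6% lay above 0, with a median of 0.15. By limma 0 of either list passed, where 0.128% of all genes rose and 0.220% fell. In jejunum, where 6.32% of all genes rose, 1 of 40 assembly genes rose. It was Eif6, which keeps free 60S subunits from joining (0.96 ± 0.26, limma adjusted p = 0.0351). On the mixed list 2 of 18 rose, Eif4ebp1 (2.11 ± 0.41, adjusted p = 0.0121) and Rps6ka1, a p90 kinase that acts downstream of ERK (0.84 ± 0.15, adjusted p = 0.0107). In liver 1 of 40 assembly genes rose, Bysl (1.59 ± 0.36, limma adjusted p = 0.0424), which acts in 40S maturation, where 2.03% of all genes rose. In muscle and ileum 0 genes of these lists passed by limma, as did 0.00% of all genes.

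Ribosomal proteins that the symbol rule leaves out include Fau, made as a fusion with a ubiquitin-like protein, and Rack1, listed as Gnb2l1. In WAT Gnb2l1 (log2 difference 0.68 ± 0.26, limma adjusted p = 0.0546) and Fau (0.59 ± 0.28, adjusted p = 0.113) did not pass. In the other tissues that list them, 0 of both passed by limma.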

How the data were processed

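Total RNA of 6 tissues was sequenced in 51 libraries. The values are CPM tables deposited by the authors, with 1 decimal. Counting used HTSeq on GRCm38 per the submitters' processing notes; its version, the aligner, the annotation, the strand setting and the treatment of reads with several placements were not given. Exact repeats of a line (339 in ileum, 374 in WAT, of which 67 and 76 were members) were removed, as were 2 ileal and 6 liver lines that name no gene. Title and surgery label set the groups; the 4 muscle RYGB libraries carry a source name of sham, which was not followed. Replicates are different mice.

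Each tissue was fitted separately with limma 3.58.1 (R 4.3.3, trend and robust options) on log2(CPM + 1), two-sided, with Benjamini-Hochberg adjusted p-values over the whole table and a threshold of 0.05. The pseudocount of 1 understates changes of low genes. Differences between tissues had the mouse as a block. Shares and levels had no test. The members, gene lists, tests and alternatives were chosen with earlier results of these data known. Genes are named if they passed the threshold, had the smallest p or an extreme value in a tissue, were among the most abundant, or were paralogs; Rpl14, Rpl41 and Rps24 in jejunum and Rps2 and Rps14 in liver were singled out after their values were seen. Results of some genes are not reported here. The fits were first tested on data made with known changes.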

Additional observations from a re-analysis of the deposited data

Results flagged for a closer look

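A library that lay far from the rest of its group was found in 4 of 115 groups of values tested, and chance alone marks about 1 in 20. In ileum, sham 4 was the far library for the summed ribosomal protein share (0.958%) and for Rplp0 (519.6 CPM). Rpl22l1 in jejunum was lowest in sham 3, at 4.1 CPM, and highest among the RYGB libraries in RYGB 1, at 8.1 CPM.

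The RYGB minus sham difference itself differed between tissues, by limma's test of the difference of differences, for 7 genes. Between jejunum and duodenum it was lower in jejunum by a log2 difference of -1.78 for Rpl22l1 and -2.12 for Rps7. Between WAT and liver it was lower in WAT for Rps14 (-2.49), Rps4x (-3.01) and Rps25 (-2.31), and higher in WAT for Rpl15 (1.77) and Rps27rt (1.83).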

How the results depend on the processing

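Counts of ribosomal protein genes past the threshold moved as follows, and the cause was not tested. Leaving out 1 library at a time gave 0 to 24 in duodenum and 1 to 17 in jejunum. It gave 0 to 13 in liver and 13 to 58 in WAT. At the highest counts 7.5%, 9.79%, 13.4% and 14.4% of all genes rose, in that order. At the lowest counts 0.0%, 2.04% to 3.25%, 0.0292% to 0.0681% and 13.4% rose. Leaving out 1 mouse gave 0 to 4 for the jejunum minus duodenum test and 0 to 14 for WAT minus liver. At the highest of these counts 291 of 10663 and 2189 of 9707 genes passed. At the lowest, 59 to 158 and 378 to 772 genes passed. With a mean CPM of at least 5 the count was 1 in duodenum and 1 in liver, where 0.801% and 3.35% of all genes rose. Median-of-ratios scaling gave 5 in jejunum and 4 in liver, where 5.91% and 4.99% of all genes rose. That scaling moved the WAT median of all genes from -0.16 to 0.00. With the exon length trend removed 4 passed in jejunum and 23 in WAT, where 6.21% and 18.8% of all genes rose. With the coding transcript length trend removed 1 of 50 rose in liver and 11 of 79 in WAT, where 3.82% and 18.0% of all genes rose. In WAT 6 then fell, as did 2372 of 12602 genes. With the depth class as a term 13 passed in liver, where 14.3% of all genes rose. Without RYGB 2 and 4, 5 passed in WAT, where 10.4% of all genes rose. A pseudocount of 0.1 gave 2 in WAT minus liver, where 869 of 9707 genes passed. With the replicate number as a block 6 passed in duodenum, 1 in jejunum, 5 in ileum, 0 in liver and 26 in WAT. In that order, 2.75%, 1.80%, 3.48%, 0.0486% and 11.6% of all genes rose. The replicate numbers name different mice in each group and do not pair them: deviations of same-numbered samples correlated at -0.352 to 0.556. These genes changed sign: with the exon length trend removed Rps29 (-0.083), Rpl36 (-0.072), Rplp1 (-0.048) and Rps4l (-0.27) in WAT; with the coding transcript length trend removed Rps29 (-0.31) and Rps6 (-0.14) in WAT; with median-of-ratios scaling Rpl5 in WAT (0.023). Leaving out 1 library took Rpl3l in muscle from -0.43 to 0.093 and Rplp0 in ileum from -0.38 to 0.69. The unknown depth of 46 libraries means that no counting error can be given for them.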
